A study of Homo sapiens with 4 samples.

Results

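Rab GTPases, the small GTP-binding proteins that direct membrane traffic, were followed in RNA-seq libraries from UMSCC74B, a cell line established from a squamous carcinoma of the head and neck. The genes were taken by name, as every symbol made of RAB, a number and at most a letter from A to D, which gave 61 of the 29655 distinct names in the tables. RAB7L1, the older symbol of RAB29, and RAB40AL do not have this form and were left out. The experiment compared 2 libraries of cells given control shRNA, with the genotype WT in the labels, with 2 libraries of cells given PRMT5 shRNA, with the genotype PRMT5 KD, and all were collected after 72 h. PRMT5 is the main enzyme for symmetric dimethylation of arginine. The labels describe plasmid transfection and the methods of the paper lentiviral particles. Nothing in the labels says whether the libraries of a group came from separate cultures, so the tests measure the spread between these libraries only.

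The libraries held 52263508 to 66070664 estimated counts. Protein-coding genes took 71.5% to 81.3% of them. The share of ribosomal RNA moved with the labels, from 15.3% and 14.2% in control to 26.2% and 18.0%. The PRMT5 transcript went against its label, with 94.3 and 84.2 CPM in control and 132 and 149.7 CPM in those labelled PRMT5 KD (log2 fold change 0.66, standard error 0.123, FDR = 0.00533), so every direction below is by the labels of the libraries. The study checked the silencing by immunoblot, a measure of protein that was not analysed here. Without control replicate 2 this call was lost (0.58). Of 8 markers of squamous epithelium, only DSG3 and TP63 passed the filter on low values, TP63 through control alone. Both were called lower, at -0.84 for DSG3 and -1.35 for TP63. KRT17, SFN and KRT14, below the filter, stood higher in both libraries labelled PRMT5 KD than in control, with at most 1.80 CPM. For KRT5, EPCAM and CDH1 the groups overlapped. KRT5 and KRT14, the keratins of basal squamous cells, had at most 0.461 CPM in any library, and the E-cadherin gene CDH1 had at most 0.227 CPM. The 4 fibroblast markers (COL1A1, COL1A2, DCN and PDGFRB) all passed it and stood lower in both libraries labelled PRMT5 KD than in control. Their summed level was 372 and 431 CPM in control against 61.9 and 70.8 CPM. Of the 3 endothelial markers only PECAM1 passed, through control alone. The 3 summed to 10.1 and 14.0 CPM in control against 1.01 and 0.461 CPM. Of the 5 leukocyte markers only CD68, a lysosomal protein made by many cells, passed, and CD3E was at 0 in all 4 libraries. The part of these markers and of the ribosomal RNA share in the Rab results was not tested, and in bulk RNA fewer cells of a type and less RNA per cell cannot be told apart.

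Rab proteins switch between a GDP-bound and a GTP-bound state. Exchange factors load them with GTP on a given membrane, where they recruit effectors such as tethers and motors, and GTPase-activating proteins return them to the GDP form. GDP dissociation inhibitors then carry them back through the cytosol. Membrane attachment needs geranylgeranyl groups on cysteines at the C terminus, which Rab geranylgeranyl transferase adds with the help of an escort protein. Each Rab marks a compartment, so the family is commonly ordered by endocytic, secretory and ciliary routes.

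The coding ends that carry these cysteines are shown for the RAB5 paralogs, the subfamily whose members were called in opposite directions, and for RAB26, RAB38 and RAB35, which had the largest decrease and the 2 largest increases of the family. Each line gives the last 27 coding bases before the stop codon of the canonical GENCODE 44 transcript on GRCh38, 5′ to 3′, with the cysteine codons TGT and TGC in capitals.
RAB5A: ccaaccaggaatcagTGTTGTagtaac
RAB5B: cagaacaagagccagTGTTGTagcaac
RAB5C: gccagccggagccagTGCTGCagcaac
RAB26: ggtcgaggggcctccTGCTGCcgccct
RAB38: gccagcTGCtctggcTGTgccaaatcc
RAB35: aacagtaaacgaaagaaacgcTGCTGC
They lie at chr3:19983794-19983820 on the plus strand for RAB5A, chr12:55992183-55992209 on the plus strand for RAB5B, chr17:42125786-42125812 on the minus strand for RAB5C, chr16:2153392-2153418 on the plus strand for RAB26, chr11:88113991-88114017 on the minus strand for RAB38 and chr12:120097248-120097274 on the minus strand for RAB35. All 3 RAB5 genes and RAB26 end with adjacent cysteine codons followed by 2 others, RAB35 ends on adjacent cysteine codons, and RAB38 has a single cysteine codon among its last 4. Over the family, 60 of the 61 genes had a cysteine codon among the last 4, of which 43 had at least 2, and RAB6C had none there.

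Across the family, 51 of the 61 Rab genes reached an RPKM of 0.5 in both libraries of at least a single group and were tested, within a fit to all 11901 protein-coding genes that did so. Calls needed an FDR under 0.05 in edgeR's quasi-likelihood test and a log2 fold change of 0.5 or more in either direction. Of the Rab genes tested, 8 were called higher under the PRMT5 KD label and 15 lower, which is 45.1% of them against 45.6% of all genes tested. The background was 21.3% for higher and 24.4% for lower, so the share of Rab genes called was near that of the transcriptome. The median log2 fold change was -0.04 over the Rab genes tested and -0.01 over all genes. The libraries of the groups did not overlap for 39 of the 51 Rab genes, 16 with the higher values under the PRMT5 KD label and 23 with the lower, against 80.5% of all genes tested, 39.9% and 40.6%. Scaled to total counts alone, which shifted the median of all genes to 0.17, 13 Rab genes were called higher and 8 lower, and over all genes tested 29.4% and 18.6%. At a threshold of 1 on the log2 scale 9 Rab genes were called, 2 higher and 7 lower, against 21.6% of all genes tested, 8.68% higher and 12.9% lower. RAB14, RAB7A, RAB43 and RAB18 met the FDR threshold without the fold change, which brings the Rab genes that met it to 27 against 54.5%. DESeq2 made 22 Rab calls (46.6% of all genes). Of the genes tested, 5 passed the filter through a single group (RAB33A, RAB39B, RAB7B and RAB9B in control and RAB3A in the libraries labelled PRMT5 KD). Among the other 46, 20 were called, or 43.5% against 43.2%.

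**Figure D1:**
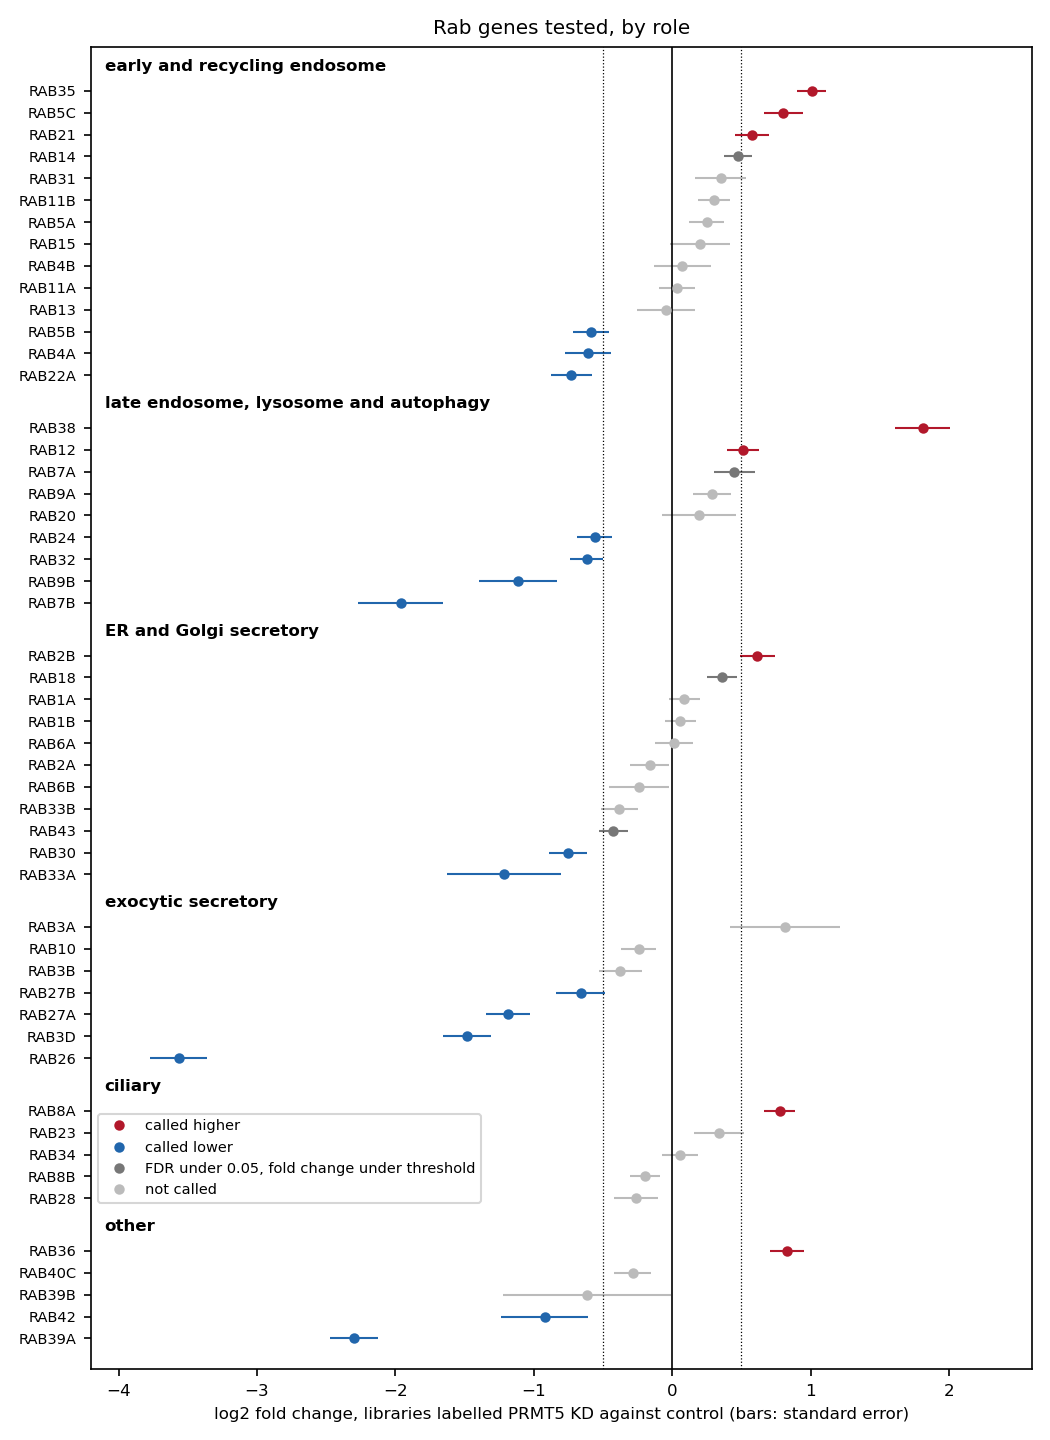
Log2 fold change of the 51 Rab genes tested, libraries labelled PRMT5 KD against control, grouped by role, with bars for the standard error, a solid line at 0 and dotted lines at -0.5 and 0.5. The exocytic genes lie mostly left of 0, led by RAB26 at -3.57, and RAB38 lies farthest right at 1.81.

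The summed level of the 61 genes, as RPKM, was 718 and 769 in control and 781 and 717 in the libraries labelled PRMT5 KD, and the groups overlapped. Sums over single routes separated the groups in some cases where the total did not. Of all genes tested, 80.5% separated the groups singly. Exocytic Rab genes summed to 91.6 and 106 RPKM in control against 65.4 and 71.1 RPKM. RAB10, which was not called, held 50.9 and 58.4 RPKM of this in control and 43.9 and 48.5 RPKM in the libraries labelled PRMT5 KD. Early and recycling endosome genes summed to 182 and 202 RPKM against 253 and 218 RPKM. Genes assigned to none of the routes summed to 18.2 and 19.1 RPKM against 13.3 and 12.5 RPKM. In each case the groups did not overlap. With 2 libraries against 2 an exact permutation test cannot reach a p of 0.05, so these sums carry no test.

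Exocytic Rab genes, which act when secretory vesicles and granules reach the plasma membrane, included 4 called lower and none called higher among the 7 tested of 9, or 57.1% called against 45.6% of all genes (21.3% higher and 24.4% lower), and their median was -0.66 on the log2 scale. RAB26, a Rab of secretory granules, had the largest change of the family. It had 14.1 and 17.5 CPM in control and 1.33 and 1.34 CPM in those labelled PRMT5 KD, and so fell from a mean of 15.8 ± 2.44 CPM (SD, n = 2) to 1.33 ± 0.0100 CPM (SD, n = 2). On the log2 scale this was -3.57 ± 0.205 (standard error), at FDR = 0.000207. Both control libraries lay far above both libraries labelled PRMT5 KD. RAB26 lies on chromosome 16 from 2140803 to 2154165 of GRCh38.

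RAB3D, the RAB3 paralog of exocrine granules, fell from a mean of 57.7 ± 8.52 CPM (SD, n = 2) to 20.6 ± 3.55 CPM (SD, n = 2; log2 fold change -1.48, standard error 0.172, FDR = 0.000997), with 51.7 and 63.7 CPM in control and 18.1 and 23.2 CPM in those labelled PRMT5 KD. RAB27A, which docks granules and multivesicular bodies at the plasma membrane, had 24.6 and 30.0 CPM in control and 12.6 and 11.4 CPM in those labelled PRMT5 KD (log2 fold change -1.19, standard error 0.156, FDR = 0.00148). For both genes every library labelled PRMT5 KD lay below every control library. Its paralog RAB27B was called lower as well, at -0.66 (FDR = 0.0202), with 86.1 and 113 CPM against 56.0 and 69.7 CPM. RAB3D shares exon sequence with TMEM205 on the same strand and RAB27A with LOC101928527 on the same strand and PIGB on the opposite strand, and the sources used here do not state how reads in shared exons were assigned. RAB10, which delivers cargo to the basolateral membrane, had the highest mean RPKM of the group and was not called. It had 186 and 214 CPM in control and 161 and 177 CPM in those labelled PRMT5 KD (log2 fold change -0.24, FDR = 0.147). RAB3B, the other abundant RAB3 gene, stood at -0.37 (FDR = 0.0820). RAB3A, the synaptic vesicle Rab, was scarce with 0.732 and 1.10 CPM against 2.06 and 1.19 CPM and stood at 0.82 (FDR = 0.124). RAB26, RAB3D and RAB27A kept their calls in each fit that left out a library. RAB27B lost its call without control replicate 2 (-0.45), without PRMT5 KD replicate 1 (-0.47) and with total counts alone (-0.48), while RAB3B gained a call without PRMT5 KD replicate 1 (-0.51) and RAB3A without PRMT5 KD replicate 2 (1.16).

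**Figure D2:**
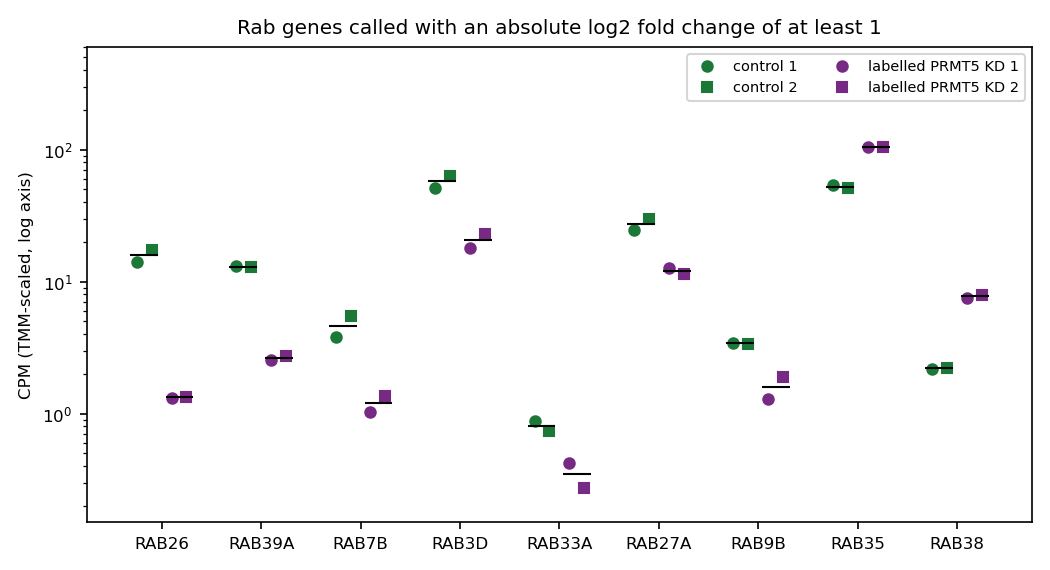
CPM on a log axis of the 9 Rab genes called with a log2 fold change of 1 or more in either direction, a point per library (green for control, purple for the libraries labelled PRMT5 KD, circles for replicate 1 and squares for replicate 2), with lines at the group means. RAB26 drops from 14.1 and 17.5 CPM to 1.33 and 1.34 CPM, and RAB35 and RAB38 are the only 2 of the 9 that rise.

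Early and recycling endosome genes moved in both directions, with 3 called higher and 3 lower among the 14 tested of 16, or 42.9% called against 45.6% of all genes, and a median log2 fold change of 0.23. RAB35, which acts in fast recycling from endosomes and in cytokinesis, rose from a mean of 52.4 ± 1.88 CPM (SD, n = 2) to 106 ± 0.240 CPM (SD, n = 2; log2 fold change 1.01, standard error 0.105, FDR = 0.000717). It had 53.8 and 51.1 CPM in control and 105 and 106 CPM in those labelled PRMT5 KD, with little spread in either group. RAB5C, a Rab of early endosome fusion, rose from a mean of 67.3 ± 0.459 CPM (SD, n = 2) to 117 ± 18.9 CPM (SD, n = 2; log2 fold change 0.80, standard error 0.139, FDR = 0.00394). Per length RAB5C was the most abundant of this group in the libraries labelled PRMT5 KD, and RAB13 was in control. RAB21, a Rab of integrin uptake, was called higher at 0.57 (FDR = 0.00870). RAB14, which links the Golgi and endosomes, met the FDR threshold alone, at 0.48 (FDR = 0.00937).

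The 3 early and recycling genes called lower were RAB22A, a Rab of early endosomes and clathrin-independent recycling, at -0.73 (FDR = 0.00740), RAB4A, a fast-recycling Rab, at -0.61 (FDR = 0.0216), and RAB5B at -0.58 (FDR = 0.0102). The other genes of this group were not called. RAB11A and RAB11B, the Rabs of the recycling endosome, stood at 0.03 (FDR = 0.842) and 0.30 (FDR = 0.0659). RAB5A stood at 0.25 (FDR = 0.136), RAB31 at 0.35 (FDR = 0.157), RAB4B at 0.07 (FDR = 0.782), RAB15 at 0.20 (FDR = 0.465) and RAB13, a Rab of tight junctions, at -0.04 (FDR = 0.879). RAB35 and RAB5C kept their calls in each fit that left out a library. RAB22A, RAB4A, RAB5B and RAB21 lost theirs without control replicate 2 (-0.57, -0.49, -0.48 and 0.55), and RAB4A and RAB21 also without control replicate 1 (-0.72 and 0.60). RAB21 lost its call without PRMT5 KD replicate 1 (0.49) and RAB5B without PRMT5 KD replicate 2 (-0.48). Scaled to total counts alone, RAB4A and RAB5B were not called (-0.43 and -0.41), whereas RAB14 and RAB31 were (0.65 and 0.52). RAB14 was also called under the filterByExpr filter (0.54), with no filter on low counts (0.53) and without PRMT5 KD replicate 1 (0.50). RAB31 was also called without PRMT5 KD replicate 2 (0.56).

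Late endosome, lysosome and autophagy genes were all tested, and of the 9, 2 were called higher and 4 lower, or 66.7% called against 45.6% of all genes, with a median log2 fold change of 0.19. RAB38, which sorts cargo to lysosome-related organelles such as melanosomes, rose from a mean of 2.21 ± 0.0142 CPM (SD, n = 2) to 7.75 ± 0.269 CPM (SD, n = 2; log2 fold change 1.81, standard error 0.199, FDR = 0.000820). It had 2.20 and 2.22 CPM in control and 7.56 and 7.94 CPM in those labelled PRMT5 KD, the largest increase of the family. RAB32, which shares that role, had the highest RPKM of the group in control and RAB7A in the libraries labelled PRMT5 KD. RAB32 stood at 77.1 RPKM on average in control and 50.2 RPKM in the other group, and was called lower. It had 84.2 and 80.0 CPM in control and 57.6 and 49.4 CPM in those labelled PRMT5 KD (log2 fold change -0.62, standard error 0.122, FDR = 0.00657). The 2 genes thus had separate groups in opposite directions, RAB32 at a far higher level throughout.

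RAB7B, which acts between endosomes and the trans-Golgi network, was called lower with 3.79 and 5.51 CPM in control and 1.03 and 1.36 CPM in those labelled PRMT5 KD (log2 fold change -1.96, standard error 0.307, FDR = 0.00272). RAB9B, a late endosome Rab, was called lower with 3.46 and 3.40 CPM in control and 1.28 and 1.88 CPM in those labelled PRMT5 KD (log2 fold change -1.11, standard error 0.281, FDR = 0.0164). Both passed the filter on low values only through the control group, where they were high, so a difference was built into their selection. RAB24, an autophagy Rab whose exons overlap MXD3 on the same strand, was called lower at -0.56 (FDR = 0.0109), and RAB12, which routes receptors to lysosomes, was called higher at 0.51 (FDR = 0.0112). RAB7A, the main Rab of late endosomes and lysosomes, had the highest CPM of the family, 272 and 284 CPM in control and 421 and 338 CPM in those labelled PRMT5 KD. It passed the FDR without reaching the fold change threshold (log2 fold change 0.45, standard error 0.148, FDR = 0.0406) and was called with total counts alone (0.62), after the length and GC correction (0.57), under the filterByExpr filter (0.51) and without PRMT5 KD replicate 2 (0.61). RAB9A stood at 0.29 (FDR = 0.124) and RAB20, a phagosome Rab, at 0.19 (FDR = 0.563). Without control replicate 1, the calls on RAB12 (0.49), RAB24 (-0.49), RAB32 (-0.58) and RAB9B (-1.10) were lost, and the same 4 were lost without control replicate 2 (0.54, -0.63, -0.66 and -1.13). RAB12 was also lost without PRMT5 KD replicate 2 (0.46) and after the length and GC correction (0.34), and RAB24 and RAB32 with total counts alone (-0.38 and -0.45).

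ER and Golgi Rab genes, which carry cargo through the early secretory pathway, had overlapping sums, with 210.1 and 222 RPKM in sum in control against 221 and 214 RPKM. Among the 11 tested of 13, 1 was called higher and 2 lower, which is 27.3% against 45.6% of all genes. RAB1B, which with RAB1A drives transport from the ER to the Golgi, had the highest RPKM of the family. It had 87.8 and 92.0 RPKM in control and 91.3 and 96.1 RPKM in those labelled PRMT5 KD, at 0.06 (FDR = 0.666). RAB1A stood at 0.09 (FDR = 0.529) and RAB6A, which organizes Golgi-derived carriers, at 0.02 (FDR = 0.934). None of these 3 abundant genes was called, and on the log2 scale their standard errors were 0.109, 0.112 and 0.137. RAB2B was called higher at 0.61 (FDR = 0.00757), while its paralog RAB2A stood at -0.16 (FDR = 0.363). RAB30, a Golgi Rab, was called lower at -0.75 (FDR = 0.00484). RAB33A was called lower at counts of 35 and 37 against 20 and 13 (log2 fold change -1.22, standard error 0.412, FDR = 0.0445), a gene that passed the filter only in control, with 0.884 and 0.739 CPM against 0.421 and 0.272 CPM. RAB43 and RAB18 passed the FDR only, at -0.43 (FDR = 0.0148) and 0.36 (FDR = 0.0285), and RAB43 overlaps the readthrough gene ISY1-RAB43. RAB33B (log2 fold change -0.38, FDR = 0.0505) and RAB6B (log2 fold change -0.24, FDR = 0.385) were not called. RAB2B and RAB30 lost their calls without control replicate 2 (0.53 and -0.68), RAB30 after the length and GC correction (-0.49), and RAB33A in 3 of the 4 fits with a library left out (-1.09 without control replicate 1, -1.34 without control replicate 2 and -0.93 without PRMT5 KD replicate 2). RAB33A also lost its call with a replicate block (-1.24, FDR = 0.0731), a fit that called 43.7% of all genes. RAB18 was called after the length and GC correction (0.68) and with total counts alone (0.54).

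Ciliary Rab genes were all 5 tested, and only RAB8A was called, or 20% against 45.6% of all genes. The median log2 fold change over the group was 0.05. RAB8A, which drives membrane delivery to the cilium and also acts in polarized exocytosis, rose from a mean of 36.1 ± 0.106 CPM (SD, n = 2) to 61.9 ± 4.44 CPM (SD, n = 2; log2 fold change 0.78, standard error 0.114, FDR = 0.00214), with 36.1 and 36.2 CPM in control and 65.1 and 58.8 CPM in those labelled PRMT5 KD. Every library labelled PRMT5 KD exceeded both control libraries, and the call held in each fit that left out a library. RAB8A overlaps HSH2D on the same strand. Its paralog RAB8B stood at -0.20 (FDR = 0.172) and RAB34, the ciliary vesicle Rab with the highest RPKM of the group, at 0.05 (FDR = 0.744) with 63.2 and 75.8 CPM against 74.8 and 69.5 CPM. RAB23, an inhibitor of Hedgehog signalling, stood at 0.34 (FDR = 0.159) and RAB28, a Rab of photoreceptor cilia, at -0.26 (FDR = 0.203). RAB23 was raised in PRMT5 KD replicate 1 alone, at 68.1 CPM against 43.9 to 47.7 CPM in the other 3 libraries, and was called without PRMT5 KD replicate 2 (0.58) and with total counts alone (0.51). In each library the ciliary group summed to between 59.4 and 71.9 RPKM, with overlap between the groups.

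Outside these routes, 5 of 9 genes were tested. RAB39A, linked to phagosomes and autophagy, fell from a mean of 13.0 ± 0.186 CPM (SD, n = 2) to 2.63 ± 0.124 CPM (SD, n = 2; log2 fold change -2.30, standard error 0.172, FDR = 0.000326), with 13.1 and 12.8 CPM in control and 2.55 and 2.72 CPM in those labelled PRMT5 KD, next to RAB26 the largest decrease of the family. RAB36 was called higher at 0.83 (FDR = 0.00231), with 14.8 and 14.9 CPM against 26.1 and 26.7 CPM. RAB42 was called lower at -0.92 (FDR = 0.0452), a call lost without control replicate 1 (-1.09), control replicate 2 (-0.72) or PRMT5 KD replicate 1 (-0.60) and with total counts alone (-0.74). RAB39B, a neuronal Rab, had 5.66 and 4.73 CPM in control and 5.35 and 1.42 CPM in those labelled PRMT5 KD. Its libraries labelled PRMT5 KD disagreed and it was not called (log2 fold change -0.62, standard error 0.605, FDR = 0.429), while without PRMT5 KD replicate 1 it was called, at -1.83. RAB40C, which recruits a ubiquitin ligase through its SOCS box, had the highest RPKM of these genes as a mean over all 4 libraries, though RAB39A was above it in control and RAB36 under the PRMT5 KD label. It stood at 5.33 and 6.03 RPKM against 4.72 and 4.61 RPKM and was not called (log2 fold change -0.28, FDR = 0.112).

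The 10 genes not tested stayed below the filter in both groups, with at most 0.392 RPKM and 121 counts in any library. They were RAB17 and RAB25, the Rabs of apical recycling in epithelia, RAB3C and RAB37, RAB6C and RAB41, and RAB19, RAB40A, RAB40B and RAB44. RAB25 had 1 count in control replicate 1 and 0 in the other 3 libraries, and RAB17 had 5 to 14 counts per library. RAB41 was at 0 in all 4, where a count of 0 allows up to 3 counts. RAB37 had 18 and 29 counts in control against 0 and 8, and RAB40B 60 and 121 against 54 and 30. Under the filterByExpr filter RAB40B stood at -1.10 (FDR = 0.0625) and RAB37 at -2.53 (FDR = 0.0607), neither of them called. RAB6C is a close copy of RAB6A that may share its reads. RAB29, listed as RAB7L1 and so outside the name rule, had 83.7 and 85.6 CPM against 56.3 and 53.4 CPM (log2 fold change -0.63, FDR = 0.00364).

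Of the 14 numbers with more than a single gene, 13 had at least 2 genes tested, and in 8 of these the genes had fold changes of opposite sign, while over the family 25 genes lay above 0 and 26 below. Nothing particular to paralogs is read from this count. Only RAB5 had calls in both directions. RAB5B had 115 and 133 CPM in control and 87.9 and 77.0 CPM in those labelled PRMT5 KD (log2 fold change -0.58, standard error 0.130, FDR = 0.0102), RAB5C had 66.9 and 67.6 CPM in control and 131 and 104 CPM in those labelled PRMT5 KD, and RAB5A had 68.6 and 70.2 CPM in control and 90.1 and 75.1 CPM in those labelled PRMT5 KD. RAB5B and RAB5C thus separated the groups in opposite directions, and RAB5C lost no call in any fit. RAB5C made up 40.4% and 38.6% of the summed RPKM of the RAB5 genes in control and 55.9% and 54.3% in the libraries labelled PRMT5 KD, while the share of RAB5B went from 29.3% and 32.0% to 15.9% and 17.0%. The coding sequences of RAB5B and RAB5C were 77.3% identical, and those of RAB5A 72.5% to RAB5B and 72.9% to RAB5C. The RAB5B call was lost without control replicate 2 (-0.48) and without PRMT5 KD replicate 2 (-0.48).

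In the RAB2, RAB3, RAB4, RAB7, RAB8, RAB9, RAB33 and RAB39 numbers, a gene was called while a tested paralog was not. RAB7B and RAB9B, the scarcer of their pairs, were called lower, and RAB8A, the scarcer of its pair in control, was called higher. RAB7B was 2.65% and 3.65% of the summed RPKM of its pair in control, so RAB7A carried nearly all of that level. Only RAB27 had both of its genes called, and in the same direction. RAB1, RAB6 and RAB11 had no gene called. That a gene was called and its paralog was not does not show that they differed, since the difference between paralogs was not tested.

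**Figure D3:**
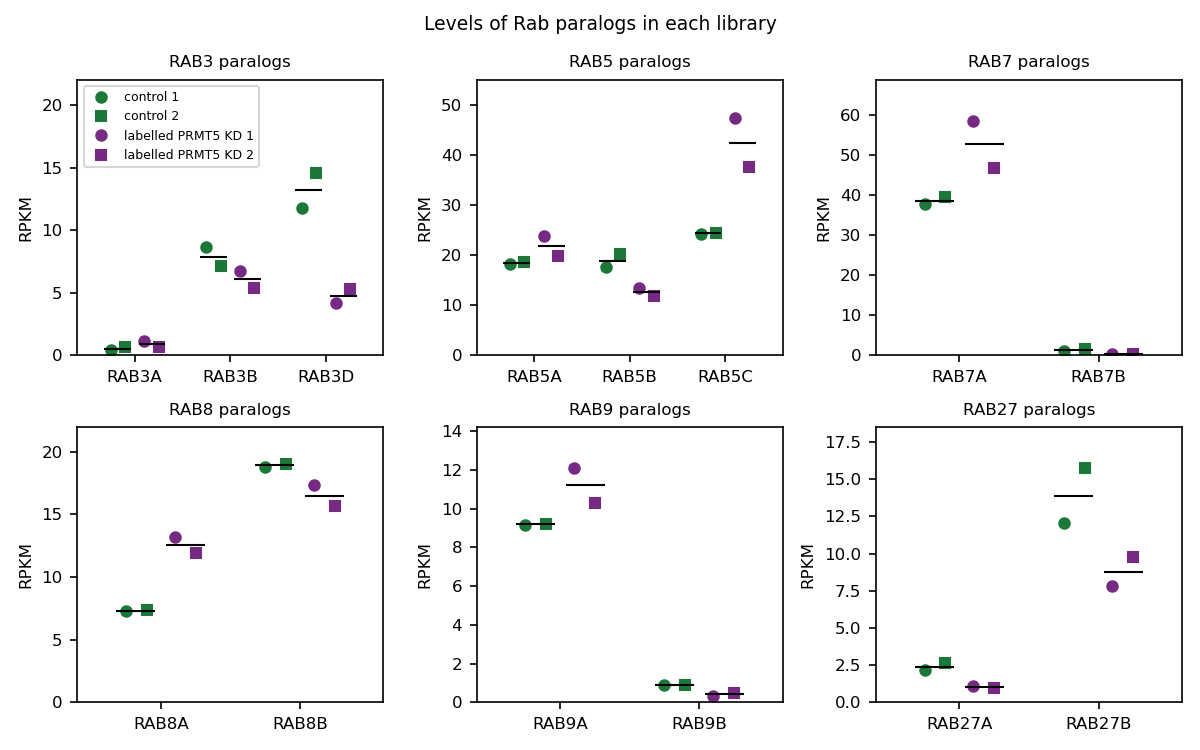
RPKM on a linear axis of the tested genes of 6 Rab numbers, a point per library (green for control, purple for the libraries labelled PRMT5 KD, circles for replicate 1 and squares for replicate 2), with lines at the group means. RAB5B falls while RAB5C rises, RAB7B lies near the axis below RAB7A, and RAB27A and RAB27B both fall.

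The Rab genes also shared features that their names do not fix. Their longest annotated transcripts were short, with a median of 3014 nt over the 51 tested against 3890 nt over all genes tested. They lie on 22 chromosomes, with 6 each on chromosomes 1 and X. The median log2 fold change fell from 0.19 in the shortest of 4 equal length classes of all genes to -0.24 in the longest. Within the same length limits the 19 Rab genes of the shortest class had a median of 0.06 and the 6 of the longest -0.52. With offsets that took out the trend with GC content and exon length, 9 Rab genes were called higher and 14 lower, against 24.2% and 21% of all genes tested.

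The proteins that act on Rabs were followed as a list of 147 genes written from general knowledge, of which 133 were tested. In this list 12 genes were called higher and 41 lower, which is 39.8% against 45.6% of all genes, with a median log2 fold change of -0.16. By direction this was 12 of 133 against a background of 21.3% for higher and 41 of 133 against 24.4% for lower. After the length and GC correction 20 were called higher and 29 lower, against 24.2% and 21% of all genes in that fit, and with total counts alone 20 higher and 30 lower, against 29.4% and 18.6%. Of 43 effectors tested, 3 were called higher and 17 lower. Of 33 GTPase-activating proteins, 2 were higher and 12 lower, and of 49 exchange factors and their subunits, 5 were higher and 10 lower.

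The prenylation and recycling machinery was expressed throughout. RABGGTA, the alpha subunit of Rab geranylgeranyl transferase, was called higher with 15.0 and 13.9 CPM in control and 29.5 and 27.3 CPM in those labelled PRMT5 KD (log2 fold change 0.97, standard error 0.131, FDR = 0.00159), whereas the beta subunit RABGGTB stood at 0.11 (FDR = 0.534). CHM, an escort protein of that enzyme, was called lower with 64.8 and 65.4 CPM against 47.7 and 35.5 CPM (log2 fold change -0.65, FDR = 0.0147), and its retrocopy CHML stood at -0.22 (FDR = 0.213). The CHM call was lost without control replicate 1 (-0.65), control replicate 2 (-0.64) or PRMT5 KD replicate 2 (-0.44) and with total counts alone (-0.47). RABAC1, a prenylated Rab acceptor, was called lower (log2 fold change -0.68, FDR = 0.00528) and RABIF, a chaperone of nucleotide-free Rabs, higher (log2 fold change 0.65, FDR = 0.00823). GDI2, a GDP dissociation inhibitor, stood at 0.26 (FDR = 0.104) and was not called.

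Among effectors, SYTL1 and SYTL2, the synaptotagmin-like proteins that link RAB27 to membranes, were called lower, with 2.85 and 3.38 CPM against 0.189 and 0.544 CPM (log2 fold change -3.08, FDR = 0.00223) for SYTL1 and 24.5 and 25.6 CPM against 6.46 and 6.66 CPM (log2 fold change -1.93, FDR = 0.000300) for SYTL2. MYO7A, a myosin that joins RAB27A through an adaptor, was called lower with 18.6 and 18.6 CPM against 3.87 and 3.58 CPM (log2 fold change -2.32, FDR = 0.000269). SYTL1 and MYO7A passed the filter on low values only through the control group, so a lower level was built into their selection. The other tested genes of the synaptotagmin-like family were named after their values had been seen. These were SYTL3 and SYTL4, called higher at 0.63 (FDR = 0.0271) and 0.58 (FDR = 0.0261), so the family moved in both directions.

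Among enzymes that act on Rabs, TBC1D4, the GTPase-activating protein of RAB10, fell from a mean of 65.5 ± 1.35 CPM (SD, n = 2) to 14.7 ± 3.45 CPM (SD, n = 2; log2 fold change -2.15, standard error 0.178, FDR = 0.000420), while RAB10 itself was not called. TBC1D5, which acts on RAB7, fell from a mean of 149 ± 13.6 CPM (SD, n = 2) to 49.5 ± 8.39 CPM (SD, n = 2; log2 fold change -1.59, standard error 0.154, FDR = 0.000563). The exchange factors DENND2A (log2 fold change -3.49, FDR = 0.000548) and DENND6B (log2 fold change -2.39, FDR = 0.000997) and the TRAPP subunit TRAPPC6A (-2.0, FDR = 0.00731) were called lower from levels of at most 11.4 CPM in control, and TRAPPC6A was not called without control replicate 2 (-1.68). DENND2A and DENND6B, too, passed the filter only in control, where they were high. A few partners of the called Rabs were picked after their values had been seen. RIN1, an exchange factor of RAB5, was called higher (log2 fold change 1.00, FDR = 0.00155), and EEA1, the RAB5 effector that tethers early endosomes, lower (log2 fold change -0.84, FDR = 0.00182). Other partners of RAB5 on the list included RIN2, RIN3, RABGEF1, RABEP1 and RABEP2, not called (-0.20, 0.03, 0.22, -0.01 and 0.16). They also included APPL2, which was called lower (-1.09). RAB3IP, the exchange factor that activates RAB8, was called lower (log2 fold change -0.56, FDR = 0.0141) and its paralog RAB3IL1 higher (log2 fold change 0.82, FDR = 0.0117).

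**Figure D4:**
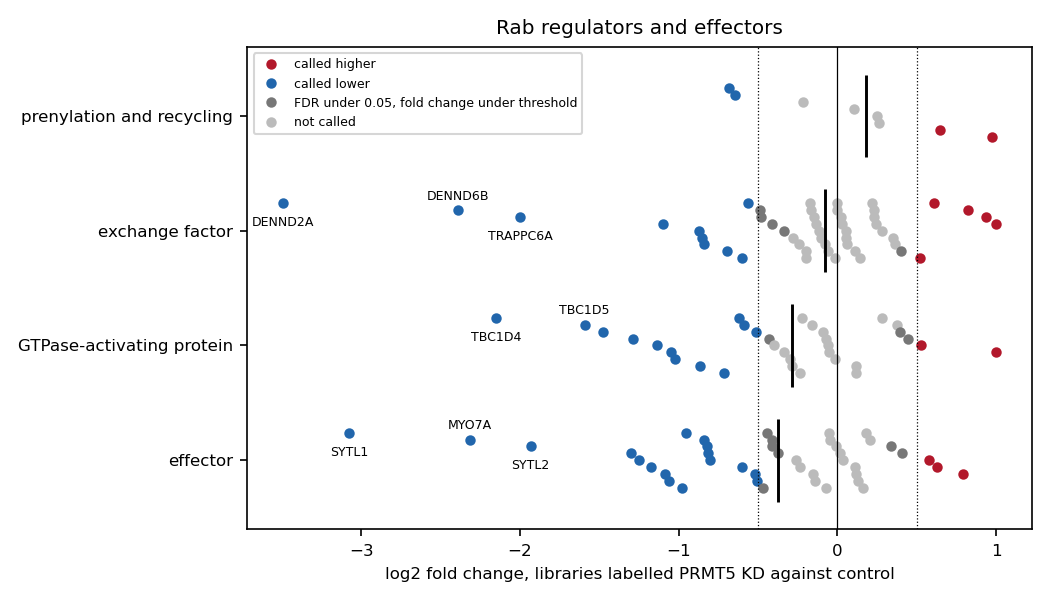
Log2 fold change of the 133 Rab regulators and effectors tested, libraries labelled PRMT5 KD against control, a point per gene by class, with vertical bars at the class medians and names for called genes that moved by 1.5 or more on the log2 scale. More points are blue, called lower, than red, called higher, in the effector, GTPase-activating and exchange factor classes (17, 12 and 10 against 3, 2 and 5). The prenylation class has 2 of each. Over all genes tested 24.4% were called lower and 21.3% higher.

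The fits with a library left out tested the same genes as the main fit. RAB7B, which passed the filter through control alone, thus kept a difference built into its selection. Over the called Rab genes, these fits kept some calls and lost others. RAB26, RAB39A, RAB7B, RAB3D, RAB27A, RAB5C, RAB8A, RAB36, RAB35 and RAB38 were called in each of the 4, with RAB26 between -3.71 and -3.40 and RAB38 between 1.78 and 1.88. Without control replicate 2, 10 of the 23 calls were made again, and without control replicate 1, 15. Over all genes tested the share called fell as well, from 45.6% to 26.5% and 33%. Each of the fits without a library labelled PRMT5 KD made 20 of the 23 calls again, at backgrounds of 48.1% without replicate 1 and 46.7% without replicate 2.

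**Figure D5:**
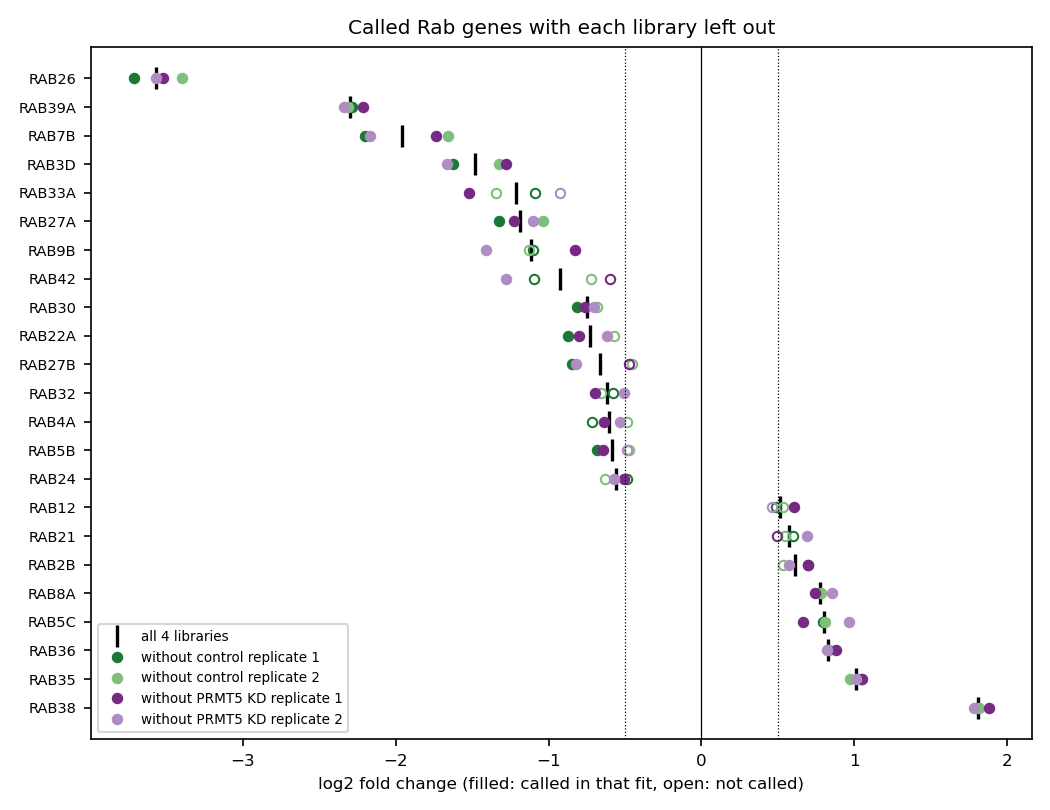
Log2 fold change of the 23 called Rab genes with all 4 libraries (black bar) and in the 4 fits that each left out a library (circles, filled where the gene was called in that fit and open where it was not). Circles stay on the side of 0 of the bar for each gene, and open circles gather near the dotted threshold lines at -0.5 and 0.5, with those of RAB33A, RAB9B and RAB42 farther out.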

How the data were processed

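The 4 libraries were prepared from total RNA with a directional kit and sequenced on a Singular Genomics G4. The authors deposited estimated counts per gene, 1 table per library, not normalized. Per the labels, their processing notes name FastQC, Trim Galore, STAR, Salmon, DESeq2 and GRCh38 without roles, while the methods of the paper describe featureCounts after STAR, restricted to protein-coding genes of Gencode. The tables also hold non-coding genes, and some values have decimals. Which program made the tables is not given in the sources used here.

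Rows with the same name were summed, 28 rows with date-like names (0.150% to 0.161% of counts) were left out, and counts were rounded. Names were matched to GENCODE 44 (GRCh38) by symbol, or by RefSeq symbol, number or unique synonym, which gave 18900 protein-coding names, all 61 Rab names among them. RPKM used union exon length. Protein-coding genes were fitted if both libraries of a group reached 0.5 RPKM, using edgeR 4.0.16 (TMM, robust quasi-likelihood, no replicate term) in R 4.3.3, with Benjamini-Hochberg adjustment over the 11901 genes. CPM and RPKM are scaled by TMM. Alternatives were DESeq2 1.42.0, other scalings, filters and gene sets, a non-robust fit, a replicate term, spline offsets for exon length and GC content, and each library left out. On simulated counts for this comparison, 200 of 11901 genes were changed, far fewer than the 5430 called in the data. Of the genes changed by 1 on the log2 scale 89% were recovered, and of those changed by 2, 99%. Of the calls in the simulation 15.3% were unchanged genes. That share is above the FDR threshold of 0.05, so in the simulation the FDR understated the share of unchanged genes among the calls. The calls made here used the same kind of fit, and their FDR values may be too low as well. The size of the share depends on how many genes change, so 15.3% itself does not carry over to them.

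The Rab genes, roles, regulator list and markers were chosen with earlier results of these data known, and roles and lists came from general knowledge. Every Rab gene was named. Values per library were given for called genes that moved by 1 or more on the log2 scale, for the gene with the highest mean RPKM over all libraries in each role, and for subfamilies with opposite calls, and regulators were named if called at 1.5 or more or if they act in prenylation or recycling. A gene of that last class is not reported here. Intervals were not computed, since the counts are estimates. Protein sequences were not used here.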

Additional observations from a re-analysis of the deposited data

How the results depend on the processing

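The 23 Rab calls numbered 21 to 23 under the other tests, scalings, filters, gene sets and corrections, and 10 to 24 with a library left out. The 8 higher calls became 13 and the 15 lower calls 8 with total counts alone, which moved the median of all genes to 0.17. With a library left out they ranged from 5 to 11 and from 5 to 15. A fold change threshold of 1 left 9 Rab calls by its own construction, 2 higher and 7 lower. Of the 133 regulators and effectors tested it left 20 calls, 1 higher and 19 lower. Over all genes tested it left 21.6%, 8.68% higher and 12.9% lower. The higher call was RIN1, at 1.00 on the threshold itself, and TBC1D30 fell just short at 0.999.

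The 53 calls on regulators and effectors (12 higher, 41 lower) ranged from 27 to 53 with a library left out (higher 4 to 13, lower 23 to 40). Scaling to total counts alone gave 20 higher and 30 lower. The length and GC correction gave 20 and 29, and 19 and 30 when a replicate block was added to that correction. The cause was not tested. The PRMT5 value ranged from 0.57 to 0.78 with a library left out.

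Of the 23 calls, 10 held in all 14 alternatives, and none changed sign. DESeq2, the non-robust fit and the replicate block each lost RAB33A alone. Same-numbered libraries share only a number. Their deviations had a correlation of -0.0993 across genes, and the replicate block gave 22 Rab calls (8 higher, 14 lower) and 5201 calls over all genes, against 5430. Removing a library leaves a lone sample in a group, which is assumed to vary like the other group. Tests for outlying libraries do not apply to 2 libraries a group.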
